A study of Homo sapiens with 10 samples.

Results

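The 39 genes described here encode the contractile apparatus and the calcium release machinery of muscle. They were taken by name from the 28265 genes counted in each library of a time course of human thyroid organoids. RYR1, the calcium release channel of skeletal muscle, was singled out because its count dropped between day 23 and day 31, and the question was whether that drop belonged to a change shared by muscle genes. Its values over that week, and those of the other members, are therefore given as a description, with no p-value. Calls over that week are counted but not read. By textbook use in muscle, 14 of the genes are skeletal, 12 cardiac and 7 smooth, and 6 are shared by more than 1 muscle type.

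Organoids were grown from the human embryonic stem cell line ESIBIe003-A-6, which carries GFP at 1 allele of NKX2-1 and doxycycline-inducible NKX2-1 and PAX8 transgenes. All groups had received Activin A and a doxycycline pulse, and NKX2-1/GFP+ cells were sorted before bulk RNA-seq, with 2 libraries per day, each from pooled wells of the same engineered line. The libraries of days 16, 23 and 31 are labelled c-AMP (the methods start 8-br-cAMP, a cell-permeable cAMP analogue, at day 16), those of day 38 TSH DEX (thyroid stimulating hormone and dexamethasone, a glucocorticoid) and those of day 45 TSH SB (SB431542, a TGFβ receptor kinase inhibitor, which the methods add to the TSH and dexamethasone medium). Days 23 and 31 share the c-AMP label, but the paper places the switch from cAMP to TSH and dexamethasone shortly before day 31. Whether the medium also differed between days 23 and 31 therefore cannot be told. In the other comparisons time and medium, by the labels or by the methods, changed together, so their parts in a difference cannot be told apart. Cultures kept on cAMP throughout were not analysed here. Total counts were between 7247268 and 10333933 per library. The sorted cells carried their defining gene in every library: NKX2-1 was at 90.00 and 83.8 CPM on day 16, 143 and 129 on day 23, 151 and 157 on day 31, 154 and 133 on day 38, and 58.1 and 66.7 on day 45. PAX8, the other thyroid factor of the transgenes, was at a mean of 649.8 CPM at day 16 and 518 CPM at day 45. CPM is a gene's count relative to its library's total, after TMM scaling for differences in composition.

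In striated muscle, thick filaments of myosin slide along thin filaments of actin, tropomyosin and troponin, and the giant protein titin holds the sarcomere together. Calcium leaves the sarcoplasmic reticulum through ryanodine receptors, binds troponin C and is pumped back by SERCA ATPases, while calsequestrin buffers it in the store. Smooth muscle has no troponin, and there calcium acts through myosin light chain kinase. Many of these genes are also used outside muscle, and thyroid epithelium is not a contractile tissue.

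Of the 39 genes, 17 averaged at least 10 CPM over the 10 libraries, 15 lay between 1 and 10 CPM and 7 below 1 CPM. A gene was tested when it had at least 5 counts in at least 2 libraries, which 35 members met. A floor of 3 counts, used below for genes without reads, stood at 0.307 to 0.435 CPM per library and covers counting error only. Levels of different genes were compared as CPM per kilobase of merged exon, and a gene said to lead a list had its highest CPM, which also grows with gene length. Per kilobase, the mean over all libraries was highest for MYL9 at 40.4, ATP2A2 at 27.2, MYL4 at 19.3 and TPM1 at 18.2, whereas RYR1 stood at 1.02 and RYR3 at 0.648.

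The 3 ryanodine receptors differed in their courses. RYR1 (chr19:38433691-38595273, plus strand, GRCh38) had 391 and 327 reads on day 16, 176 and 181 on day 23, 20 and 26 on day 31, 49 and 66 on day 38, and 74 and 72 on day 45. In CPM its daily means (± SD, n = 2) were 44.9 ± 6.58, 20.1 ± 0.838, 2.54 ± 0.692, 6.49 ± 1.69 and 9.30 ± 2.04. Day 23 stood at 44.7% of day 16, day 31 at 12.6% of day 23, and day 45 at 20.7% of day 16. The lowest library of each of days 16 and 23 was above all 6 libraries of the later days. The level was already lower at day 23 than at day 16 and was higher again at days 38 and 45 than at day 31. In bulk samples, fewer cells of a type and less RNA per cell cannot be told apart. Between day 45 and day 16, a comparison that shares no library with the week that singled RYR1 out, RYR1 fell 4.83-fold in mean CPM (log2 fold change -2.28 ± 0.36 SE, edgeR adjusted p = 5.59e-06). Between day 45 and day 38 its log2 fold change was 0.52 ± 0.37 SE (edgeR adjusted p = 0.444), which did not pass the threshold of 0.05.

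RYR2 (chr1:237042184-237833988), the channel of heart muscle and brain, took another course. It was at 43.2 and 59.8 CPM on day 16, 33.9 and 27.9 on day 23, 33.9 and 41.99 on day 31, 197 and 217 on day 38, and 220.0 and 239.8 on day 45. The lowest of the 4 libraries of days 38 and 45 was at 197 CPM and the highest of the 6 earlier ones at 59.8 CPM. RYR2 fell from day 16 to day 23 (log2 fold change -0.74 ± 0.18 SE, edgeR adjusted p = 0.00391), a call lost without day 16 replicate 2 (-0.48) or day 23 replicate 2 (-0.60) and with only the 4 libraries compared, rose from day 31 to day 38 (log2 fold change 2.45 ± 0.18 SE, edgeR adjusted p = 5.54e-13), and at day 45 was above day 16 (log2 fold change 2.16 ± 0.17 SE, edgeR adjusted p = 3.47e-12). Per kilobase, RYR1 and RYR2 stood at 2.76 and 2.90 CPM at day 16, with overlapping libraries, and at 0.571 and 12.9 CPM at day 45, without overlap. RYR3, a low-abundance receptor of many tissues, was at 15.5 and 10.1 CPM on day 16, 20.5 and 10.5 on day 23, 7.37 and 16.9 on day 31, 5.94 and 8.03 on day 38, and 18.7 and 18.3 on day 45. Its replicates differed widely on days 23 and 31 and overlapped across most days. It rose between day 38 and day 45 (log2 fold change 1.41 ± 0.43 SE, edgeR adjusted p = 0.0285), a call lost when any library of these days was left out. No 50-base stretch of the RYR1, RYR2 or RYR3 transcripts occurred in another gene.

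**Figure D1:**
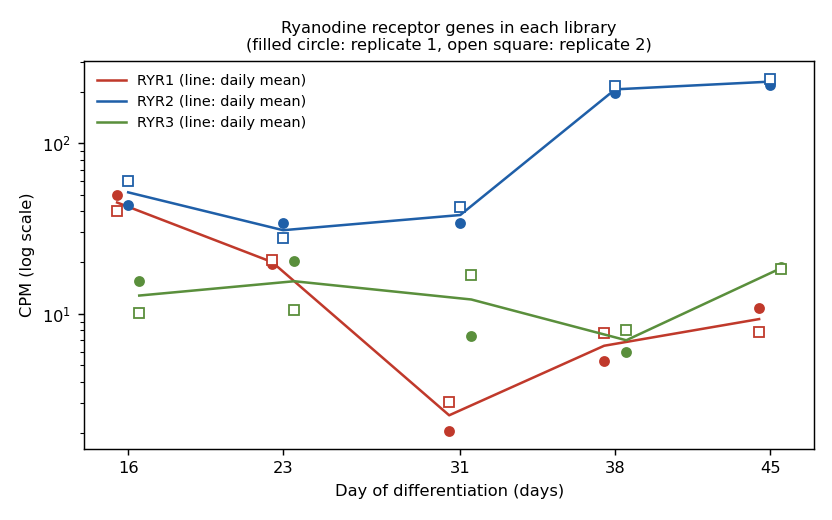
CPM (log axis) of RYR1, RYR2 and RYR3 in each library against the day of differentiation, with points for libraries, lines for daily means and small horizontal offsets between genes. RYR1 is lowest at day 31 (mean 2.54 CPM), where RYR2 is at 37.9 CPM, and RYR2 is highest at days 38 and 45.

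Over the week that singled RYR1 out the members took separate courses. Between days 23 and 31, the 35 tested members included 1 called lower, RYR1, and 1 called higher, TTN, while 0.666% of all 21014 tested genes were called lower and 1.58% higher (2.25% in either direction). The members were chosen with this week known, so nothing is read from these counts. Both day 31 libraries lay below both day 23 libraries for 5 members (RYR1, CASQ2, TPM1, MYL9 and CNN1) and above them for 7 (CASQ1, ACTA1, MYH3, MYH6, MYL3, MYLK and TTN), and 23 overlapped. Their log2 fold changes had a median of 0.13. Values above 1 were fitted for 8 members (CASQ1, ACTA1, ACTG2, TNNT3, TNNC2, MYH3, MYH6 and MYL3), and values below -1 for RYR1 (-2.99), CASQ2 (-2.22) and ACTC1 (-1.41). CASQ2, cardiac calsequestrin, had 58 and 59 reads at day 23 and 16 and 10 at day 31, and ACTC1, cardiac α-actin, had 76 and 22 and 5 and 32. Titin was at 1282 and 1221 CPM at day 23 and 1708 and 1656 CPM at day 31.

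Between day 16 and day 23, 7 members were called lower (RYR1, RYR2, TTN, TPM1, MYL4, ACTC1 and TNNI3) and 3 higher (MYL9, DES and TNNT3). The shares over all tested genes were 5.33% lower and 5.6% higher (10.9% in either direction). The median log2 fold change was -0.34 over members (-0.31 with genes absent at day 16 set at their bound) and -0.02 over all tested genes. Without day 23 replicate 2, 1 of the lower calls, TPM1, was left. RYR1 stands among the 7, but its call is not read and it is given no p here, because day 23 is one end of the week that singled it out.

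Of the weekly steps, that from day 31 to day 38 held the most calls, with 14 of 35 members higher and 2 lower. Of all tested genes, 8.8% were called higher and 6.23% lower. The median log2 fold change of members was 1.36 (1.24 with genes absent at day 31 at their bound), against 0 over all tested genes. Without TMM factors the median over all genes moved to -0.20 and the shares to 5.63% higher and 11.3% lower, and 13 members were called higher and 3 lower. By class, 6 of 11 tested cardiac members, 4 of 7 smooth, 3 of 11 skeletal (RYR1, TNNI1 and TNNT3) and 1 of 6 shared (DES) were called higher. CASQ1 and TTN were the 2 lower ones. RYR1 shares the day 31 libraries with the week that singled it out. Its call stands in the 14 members and the 3 skeletal ones but is not read. Between days 38 and 45, 3 members were called higher (ATP2A2, CNN1 and RYR3), against 4.85% of tested genes, and 0 lower, against 6.35%. The calls of CNN1 and RYR3 were lost without day 38 replicate 2. At an unadjusted edgeR p below 0.05, 2 members were lower, and DESeq2 called 1, TNNI1. Over the whole course, day 45 against day 16, 15 members were called higher, against 12.9% of tested genes, and 3 lower (RYR1, TTN and TPM1), against 11.7%. All 7 smooth muscle members were among the higher ones, with 4 of 11 cardiac, 2 of 11 skeletal (TNNT3 and ACTA1) and 2 of 6 shared (ATP2A2 and DES). Without day 45 replicate 1, the calls of the smooth muscle members ACTG2, MYH11, MYL9 and TAGLN were lost, as were those of the cardiac members MYL4 and TNNT2. The median was 1.00 over members (0.97 at the bound) and 0 over all tested genes. Differences between the classes were not tested. The 12 cardiac members together summed to 125 and 133 CPM on day 16, 81.8 and 55.8 on day 23, 71.5 and 82.9 on day 31, 452 and 434 on day 38, and 424 and 447 on day 45. The 14 skeletal members, RYR1 included, summed to 92.5 and 67.8 CPM on day 16, 55.6 and 44.7 on day 23, 38.4 and 55.4 on day 31, 64.6 and 73.7 on day 38, and 86.8 and 85.1 on day 45. Day 38 and 45 sums were far above the earlier ones for the cardiac genes. The skeletal sums of days 16 and 45 overlapped, but that overlap rests on RYR1. Of these sums RYR1 alone made up 49.6 and 40.3 CPM at day 16 and 10.7 and 7.86 CPM at day 45.

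**Figure D2:**
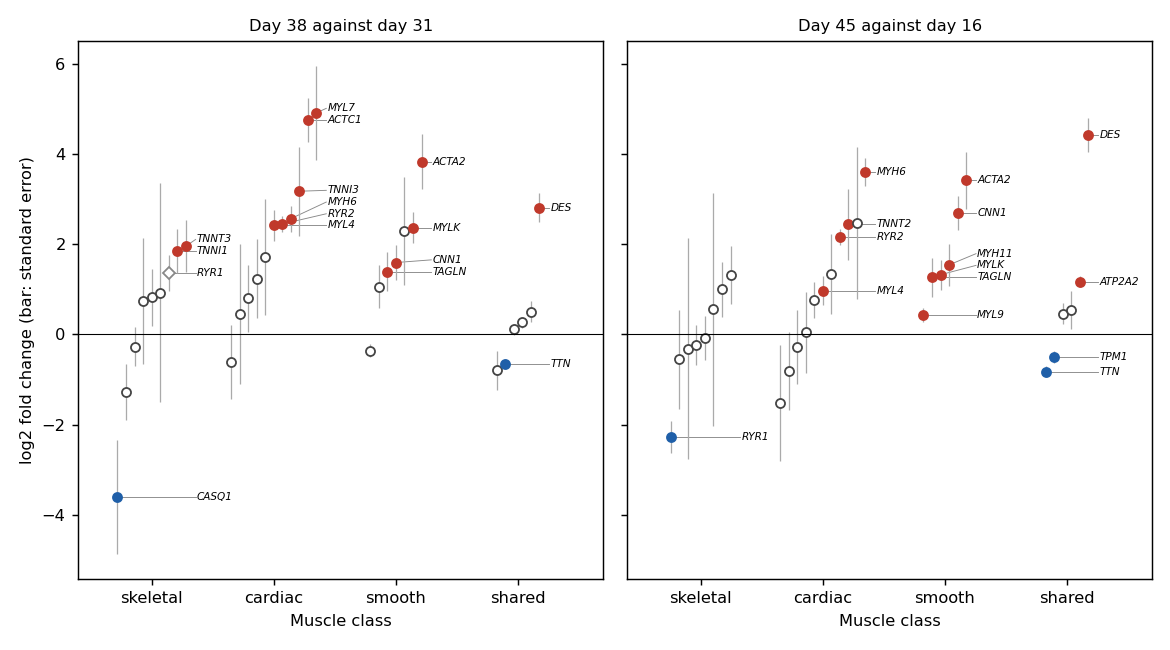
log2 fold change with its standard error (y axis) of each tested member by muscle class (x axis), for day 38 against day 31 (left) and day 45 against day 16 (right). Red points were called higher, blue points lower, open points not called, and the open diamond is RYR1, given no test at left. MYL1 and MYOG (left) and ACTA1, ACTG2, MYL1 and TNNT3 (right) are left out because both libraries of the first day had no reads. RYR1 is at -2.28 in the right panel, where all plotted smooth muscle points are above 0.

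Calcium stores were mixed. ATP2A2 (chr12:110280756-110351093), the SERCA pump of heart and of most non-muscle cells, was at 256 and 253 CPM on day 16, 336 and 311 on day 23, 329 and 362 on day 31, 372 and 374 on day 38, and 566 and 577 on day 45. Both day 45 libraries were above the other 8. It rose from day 38 to day 45 (log2 fold change 0.62 ± 0.12 SE, edgeR adjusted p = 0.000329) and from day 16 to day 45 (log2 fold change 1.17 ± 0.12 SE, edgeR adjusted p = 1.36e-09). ATP2A1, the fast skeletal pump, had between 21 and 107 reads per library and was called in no comparison. Its annotated exons overlap an antisense gene over 21.6% of their length, and whether strand was used in counting was not given in the sources used here. CASQ1, skeletal calsequestrin, had 37 and 32 reads on day 16, 33 and 0 on day 23, 45 and 45 on day 31, 5 and 2 on day 38, and 38 and 4 on day 45. Its replicates disagreed at day 23 and at day 45. It was called lower at day 38 against day 31 (log2 fold change -3.61 ± 1.27 SE, edgeR adjusted p = 0.0498), a call lost under 8 of 18 alternatives and at -4.32 without day 38 replicate 1. CASQ2 had between 9 and 59 reads per library, with both libraries of day 23 the highest, and was called in no comparison.

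Each of the 4 actins of the thin filament was called higher in at least 1 comparison. ACTC1 (chr15:34790107-34795589) was at 28.1 and 16.99 CPM on day 16, 8.42 and 2.51 on day 23, 0.512 and 3.72 on day 31, 65.8 and 46.2 on day 38, and 32.7 and 43.9 on day 45. The 4 libraries of days 38 and 45 were above the 6 earlier ones, of which day 16 replicate 1 came nearest. ACTC1 fell from day 16 to day 23 (log2 fold change -2.04 ± 0.44 SE, edgeR adjusted p = 0.00143), a call lost without day 23 replicate 2 and under DESeq2 and at -3.16 without day 23 replicate 1, and rose from day 31 to day 38 (log2 fold change 4.76 ± 0.50 SE, edgeR adjusted p = 4.44e-09). This last value was 3.91 without day 31 replicate 1 and 6.73 without day 31 replicate 2. ACTA2 (smooth muscle α-actin) had 10 and 14 reads on day 16, 3 and 25 on day 23, 27 and 7 on day 31, 195 and 267 on day 38, and 121 and 136 on day 45. All 4 later libraries exceeded all 6 earlier ones. It rose from day 31 to day 38 (log2 fold change 3.84 ± 0.62 SE, edgeR adjusted p = 1.75e-05) and over the course (log2 fold change 3.42 ± 0.63 SE, edgeR adjusted p = 6.32e-05). The first value was 4.98 without day 31 replicate 1 and 3.22 without day 31 replicate 2. Its exons overlap ACTA2-AS1 over 29.1% of their length. ACTG2, the actin of visceral smooth muscle, had 0 and 0 reads on day 16, 11 and 0 on day 23, 33 and 0 on day 31, 85 and 66 on day 38, and 25 and 10 on day 45. It was at least 6.30-fold higher at day 45 than the floor at day 16 (edgeR adjusted p = 0.0102). Without day 45 replicate 1 the bound was 2.91-fold and the call was lost, as it was without either day 16 library and under DESeq2. ACTA1, skeletal α-actin, had 0 and 0 reads on day 16, 5 and 0 on day 23, 6 and 10 on day 31, 7 and 19 on day 38, and 36 and 45 on day 45. Its day 45 level was at least 13.5-fold above the day 16 floor (edgeR adjusted p = 0.00447).

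The tropomyosins, which block or free the myosin sites on actin, changed by less. TPM1 (chr15:63042620-63071915) was at 354 and 379 CPM on day 16, 244 and 259 on day 23, 199 and 218 on day 31, 262 and 239.8 on day 38, and 254 and 264 on day 45. Both day 16 libraries were the highest of the 10. TPM1 fell from day 16 to day 23 (log2 fold change -0.54 ± 0.13 SE, edgeR adjusted p = 0.00295), lost without day 23 replicate 1, and from day 16 to day 45 (log2 fold change -0.50 ± 0.13 SE, edgeR adjusted p = 0.00253). Its antisense gene TPM1-AS, which overlaps 18.0% of its exon length, had 650 and 617 reads at day 16 and 177 and 199 at day 31. TPM2 was at 31.8 and 46.04 CPM on day 16, 32.8 and 28.7 on day 23, 29.4 and 40.2 on day 31, 50.4 and 48.3 on day 38, and 50.8 and 56.01 on day 45, and was called in no comparison.

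Of the troponins, the calcium switch of the thin filament, no complete set of one muscle type was called in a shared direction. TNNT1, slow skeletal troponin T, was at 15.97 and 8.12 CPM on day 16, 19.2 and 9.83 on day 23, 14.6 and 17.2 on day 31, 16.1 and 10.1 on day 38, and 14.4 and 6.22 on day 45 and was called in no comparison. TNNT3, fast skeletal troponin T (chr11:1919703-1938706), had 0 and 0 reads on day 16, 8 and 10 on day 23, 10 and 51 on day 31, 146 and 95 on day 38, and 158 and 235 on day 45. It was without reads in both day 16 libraries and highest at days 38 and 45. It was at least 2.71-fold above the floor at day 23 (edgeR adjusted p = 0.00798, lost without either day 16 library and with only the 4 libraries compared), rose from day 31 to day 38 (log2 fold change 1.96 ± 0.57 SE, edgeR adjusted p = 0.0162, lost without day 31 replicate 1, at 1.18, or day 38 replicate 1, and at 3.69 without day 31 replicate 2) and was at least 64.8-fold above the day 16 floor at day 45 (edgeR adjusted p = 5.56e-09). TNNI1, slow skeletal troponin I, had 60 and 55 reads on day 16, 38 and 61 on day 23, 51 and 40 on day 31, 153 and 164 on day 38, and 48 and 61 on day 45, with both day 38 libraries the highest (log2 fold change 1.85 ± 0.49 SE, edgeR adjusted p = 0.00668, lost without day 31 replicate 2 or day 38 replicate 2). TNNT2, cardiac troponin T, had 24 and 3 reads on day 16, 29 and 16 on day 23, 34 and 23 on day 31, 48 and 48 on day 38, and 76 and 70 on day 45, and was higher at day 45 than at day 16 (log2 fold change 2.44 ± 0.79 SE, edgeR adjusted p = 0.0196). That fold rested on the day 16 pair, and without day 16 replicate 2 it was 1.61 on the log2 scale and not called, without day 16 replicate 1 it was 4.59, and without day 45 replicate 1 it was not called. TNNI3, cardiac troponin I, had 59 and 70 reads on day 16, 9 and 3 on day 23, 0 and 13 on day 31, 61 and 60 on day 38, and 56 and 11 on day 45. It fell at day 23 (log2 fold change -3.55 ± 1.00 SE, edgeR adjusted p = 0.0155, lost without day 16 replicate 2 or day 23 replicate 2, and at -4.50 without day 23 replicate 1) and rose at day 38 (log2 fold change 3.18 ± 0.98 SE, edgeR adjusted p = 0.0231, lost without day 31 replicate 1 or either day 38 library, and resting on a day without reads once day 31 replicate 2 was left out), with its day 45 replicates far apart. Of the TNNT2 and TNNI3 transcripts, 88.5% and 48.5% of 50-base stretches also occur in overlapping genes without a symbol, which makes these counts uncertain. TNNC1, the slow and cardiac calcium sensor, had 14 to 36 reads per library and was called in no comparison. TNNC2 had at most 7 reads, and TNNI2 had 5 reads in 1 library of day 38 and 0 in the other 9.

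Of the thick filament genes, the atrial myosins MYH6, MYL4 and MYL7 were called higher at day 38. MYH6 (chr14:23381982-23408273), the atrial heavy chain, was at 5.07 and 9.11 CPM on day 16, 9.97 and 5.26 on day 23, 19.7 and 11.3 on day 31, 97.8 and 87.1 on day 38, and 73.9 and 98.3 on day 45. The lowest of the 4 later libraries was at 73.9 CPM and the highest earlier one at 19.7 CPM. MYH6 rose from day 31 to day 38 (log2 fold change 2.57 ± 0.29 SE, edgeR adjusted p = 1.81e-08) and over the course (log2 fold change 3.60 ± 0.31 SE, edgeR adjusted p = 2.3e-11). MYH7, the ventricular and slow skeletal heavy chain, had only 1 to 32 reads per library and was called in no comparison, and 15.3% of MYH6 50-base stretches occur in another gene. MYL4, the atrial essential light chain, was at 26.6 and 29.9 CPM on day 16, 12.3 and 6.86 on day 23, 5.22 and 15.2 on day 31, 57.9 and 50.6 on day 38, and 68.4 and 42.8 on day 45. The 4 later libraries were again the highest, the day 16 pair was intermediate, and days 23 and 31 were lowest. It fell at day 23 (log2 fold change -1.56 ± 0.34 SE, edgeR adjusted p = 0.00174, lost without day 23 replicate 2), rose at day 38 (log2 fold change 2.42 ± 0.34 SE, edgeR adjusted p = 1.95e-06, at 1.83 without day 31 replicate 1 and 3.37 without day 31 replicate 2) and was higher at day 45 than at day 16 (log2 fold change 0.97 ± 0.32 SE, edgeR adjusted p = 0.0231, lost without either day 16 library or day 45 replicate 1, at 0.60 without the latter). MYL7, the atrial regulatory light chain, had 15 and 9 reads on day 16, 7 and 1 on day 23, 3 and 3 on day 31, 107 and 78 on day 38, and 13 and 52 on day 45. Day 38 was 31.7 times day 31 (95% exact interval 14.3 to 87.6, counting error only), with an edgeR adjusted p = 0.000765. Other thick filament members were scarce. MYL3, the ventricular light chain, had 0 to 23 reads, MYL1 had 0 to 24, and MYL2, the ventricular regulatory chain, had 2 reads in 1 library and 0 in the other 9. MYH3, the embryonic skeletal heavy chain, had 49 and 128 reads in the day 38 replicates and 21 and 227 in those of day 45. MYH8, the perinatal one, had 0 and 23 reads in the day 45 replicates and 0 in all other libraries.

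The smooth muscle myosin genes and their kinase were higher at day 45 than at day 16. MYH11, the smooth muscle heavy chain, was at 7.10 and 8.62 CPM on day 16, 2.44 and 5.71 on day 23, 5.01 and 5.002 on day 31, 10.8 and 10.1 on day 38, and 30.5 and 15.5 on day 45. Both day 45 libraries were the highest of the 10, and it was higher at day 45 than at day 16 (log2 fold change 1.54 ± 0.47 SE, edgeR adjusted p = 0.013, lost without day 16 replicate 1 or day 45 replicate 1, at 0.98 without the latter). Its exons overlap NDE1 over 5.996% of their length. MYL9, a regulatory light chain of smooth muscle and non-muscle cells, was at 90.1 and 78.2 CPM on day 16, 146 and 134 on day 23, 126 and 133 on day 31, 106 and 95.5 on day 38, and 117 and 109 on day 45. It rose from day 16 to day 23 (log2 fold change 0.73 ± 0.15 SE, edgeR adjusted p = 0.000917), and was higher at day 45 than at day 16 (log2 fold change 0.42 ± 0.15 SE, edgeR adjusted p = 0.0375) in a call lost under 10 of 18 alternatives. MYLK (chr3:123610049-123884332), myosin light chain kinase, was at 16.7 and 9.60 CPM on day 16, 9.09 and 3.54 on day 23, 11.7 and 9.19 on day 31, 49.5 and 58.1 on day 38, and 33.5 and 32.4 on day 45. Days 38 and 45 did not overlap the earlier days. It rose at day 38 (log2 fold change 2.36 ± 0.34 SE, edgeR adjusted p = 3.18e-06) and over the course (log2 fold change 1.32 ± 0.34 SE, edgeR adjusted p = 0.00297, lost without day 16 replicate 2).

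CNN1, calponin, an actin-binding inhibitor of smooth muscle myosin, was at 8.11 and 5.42 CPM on day 16, 5.43 and 5.49 on day 23, 4.40 and 4.65 on day 31, 14.7 and 12.7 on day 38, and 47.9 and 39.3 on day 45. Both day 38 libraries lay above all earlier ones, and both day 45 libraries above all others. It rose from day 31 to day 38 (log2 fold change 1.59 ± 0.38 SE, edgeR adjusted p = 0.00266) and again to day 45 (log2 fold change 1.67 ± 0.36 SE, edgeR adjusted p = 0.00119, lost without day 38 replicate 2), and over the course (log2 fold change 2.69 ± 0.38 SE, edgeR adjusted p = 7.92e-07). TAGLN, transgelin, another actin-binding protein, was at 12.5 and 4.19 CPM on day 16, 6.20 and 11.5 on day 23, 8.49 and 7.79 on day 31, 23.5 and 19.3 on day 38, and 21.2 and 19.2 on day 45. It rose at day 38 (log2 fold change 1.39 ± 0.43 SE, edgeR adjusted p = 0.0221) and over the course (log2 fold change 1.27 ± 0.43 SE, edgeR adjusted p = 0.027), but the first call was lost without any library of days 31 and 38 and without TMM factors, the second without day 16 replicate 2 (0.68) or either day 45 library and with only the 4 libraries compared, and without day 16 replicate 1 it was 2.26. In TAGLN, 34.1% of the exon length overlaps PCSK7 and 38.1% a gene without a symbol on the same strand, which shares 65.5% of the 50-base stretches of the TAGLN transcript, so its counts are uncertain. DES (chr2:219418377-219426735), desmin, the intermediate filament of all muscle types, was at 2.66 and 1.60 CPM on day 16, 9.42 and 8.69 on day 23, 5.32 and 10.00 on day 31, 52.04 and 55.3 on day 38, and 50.8 and 41.6 on day 45. The lowest of the 4 later libraries was at 41.6 CPM, well above every earlier one. DES rose at day 23 (log2 fold change 2.08 ± 0.38 SE, edgeR adjusted p = 0.000185), at day 38 (log2 fold change 2.81 ± 0.32 SE, edgeR adjusted p = 3.83e-08) and over the course (log2 fold change 4.43 ± 0.38 SE, edgeR adjusted p = 1.43e-11). TTN (chr2:178525989-178830802) went the other way. It was at 1545 and 1752 CPM on day 16, 1282 and 1221 on day 23, 1708 and 1656 on day 31, 961 and 1176 on day 38, and 835 and 1028 on day 45, the highest CPM of any member but only 11.1 CPM per kilobase on average. All 4 libraries of days 38 and 45 lay below the 6 earlier ones, and 11.8% of its exon length overlaps TTN-AS1. It fell at day 23 (log2 fold change -0.40 ± 0.12 SE, edgeR adjusted p = 0.0205, lost without day 16 replicate 2 or either day 23 library), at day 38 (log2 fold change -0.65 ± 0.12 SE, edgeR adjusted p = 8e-05) and over the course (log2 fold change -0.82 ± 0.12 SE, edgeR adjusted p = 9.98e-07). All of these were changes smaller than 1 on the log2 scale.

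**Figure D3:**
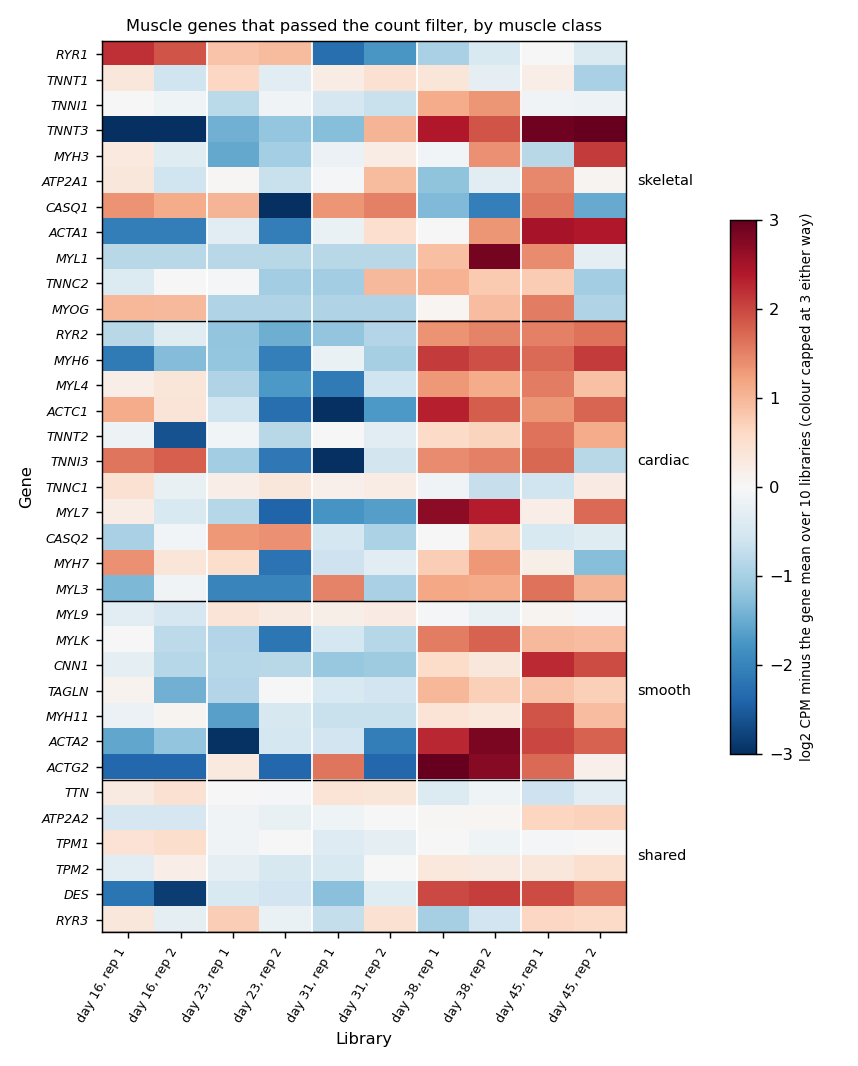
log2 CPM of the 35 tested members (y axis, grouped by muscle class and ordered by mean CPM) in the 10 libraries (x axis), as the difference from each gene's mean over the libraries, with the colour capped at 3 either way. RYR1 is red at days 16 and 23 and blue at day 31, whereas RYR2, MYH6, MYL4, ACTC1, MYLK, ACTA2 and DES are red at days 38 and 45.

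MYOD1, the master regulator of the skeletal lineage, had 0 reads in all 10 libraries, which allows up to 3 counts per library. MYOG, myogenin, which acts as myoblasts differentiate, had 5 and 5 reads on day 16, 0 and 0 on day 23, 0 and 0 on day 31, 2 and 5 on day 38, and 7 and 0 on day 45. In the wider list of 12 myogenic factors, 8 were tested. At day 23 against day 16, 3 were called lower (MEF2C, PAX7 and SIX4) and 0 higher, against 5.33% and 5.6% of all tested genes. Between days 23 and 31 the log2 fold change was -1.58 for PAX7, the 1 called lower, -0.18 for MEF2C and -0.36 for SIX4, given as a description. At day 38 against day 31, 4 were called higher and 0 lower, against 8.8% and 6.23%. MEF2A, a widely expressed MADS-box factor (log2 fold change 0.64 ± 0.15 SE, edgeR adjusted p = 0.00222), SIX4, a homeobox factor (log2 fold change 0.93 ± 0.22 SE, edgeR adjusted p = 0.00283), and PAX7, the satellite cell factor that is also expressed in embryonic neural tissue (log2 fold change 4.79 ± 0.32 SE, edgeR adjusted p = 9.29e-14), were among them. PAX7 was at 44.1 and 23.9 CPM on day 16, 9.53 and 11.5 on day 23, 4.60 and 2.33 on day 31, 106 and 88.4 on day 38, and 65.5 and 57.9 on day 45, so that it was lowest at day 31 like RYR1 but exceeded its day 16 level at day 38. MEF2D rose at day 45 (log2 fold change 1.03 ± 0.21 SE, edgeR adjusted p = 0.000744). Of 11 cardiac factors, all tested, 1 was called lower between days 23 and 31 (ISL1, log2 fold change -0.66) and 0 higher, given as a description. The shares of all tested genes in that week were 0.666% lower and 1.58% higher. At day 38 against day 31, 3 cardiac factors were called higher and 4 lower, against 8.8% and 6.23% of all tested genes. MYOCD, myocardin, the coactivator of cardiac and smooth muscle genes, was higher (log2 fold change 3.58 ± 0.61 SE, edgeR adjusted p = 3.69e-05), and ISL1 (log2 fold change -1.29 ± 0.18 SE, edgeR adjusted p = 9.84e-07), GATA6 (log2 fold change -0.90 ± 0.18 SE, edgeR adjusted p = 0.000394) and TBX5 (log2 fold change -2.87 ± 0.52 SE, edgeR adjusted p = 9.78e-05), which also act in other lineages, were lower. NKX2-5, the cardiac homeobox gene, had 0 reads at days 23 and 31 and 4 and 13 reads at day 38. Of 7 genes for serum response factor and its cofactors, 2 were called higher at day 38 (MYOCD and FHL2), against the same 8.8%. SRF itself rose from day 38 to day 45 (log2 fold change 1.89 ± 0.22 SE, edgeR adjusted p = 1.24e-07), FHL2 rose as well (log2 fold change 1.55 ± 0.27 SE, edgeR adjusted p = 0.000103) and MRTFB fell (log2 fold change -0.44 ± 0.13 SE, edgeR adjusted p = 0.0221).

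The promoters of the actins and light chains are shown because serum response factor binds a motif called the CArG box, which classically marks actin and smooth muscle promoters. RefSeq windows (GRCh38.p14) running from 250 bases before to 50 bases after the gene start were at hand for 25 of the 39 members, in 33 windows. TNNI2, MYL4, MYL9, MYL2, DES, TNNT3, TAGLN, MYH3, TNNC1, MYH7, MYH11, TNNI1, MYOD1 and TNNC2 had none. A CArG box was found on either strand in windows of 5 of the 25 members. It was found in 1.29% of all 35116 windows, which is a share of windows and not of genes. The windows of the other members, ACTA2, MYL1 and MYL3 among them, held none. The stretches below lie before the start, 5′ to 3′ on the gene's strand, with the boxes in capitals. The MYLK and ACTG2 windows belong to starts inside the annotated gene.
ACTC1 chr15:34795629-34795678, minus strand: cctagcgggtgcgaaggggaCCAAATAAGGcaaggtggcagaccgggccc
MYL7 chr7:44141364-44141413, minus strand: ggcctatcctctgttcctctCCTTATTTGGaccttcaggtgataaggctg
MYLK chr3:123620613-123620662, minus strand: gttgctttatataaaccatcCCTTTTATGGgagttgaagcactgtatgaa
ACTG2 chr2:73892878-73892964, plus strand: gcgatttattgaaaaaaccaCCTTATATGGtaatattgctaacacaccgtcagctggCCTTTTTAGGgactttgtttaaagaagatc
ACTA1 chr1:229434162-229434211, minus strand: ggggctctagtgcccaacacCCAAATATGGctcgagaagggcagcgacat
The boxes began 109 bases before the start in ACTC1, 61 in MYL7, 94 in MYLK, 110 and 73 in ACTG2, and 97 in ACTA1. The RYR1 window held no CArG box, MEF2 site, CAGCTG (an E-box) or TATAAA on either strand, which were found in 1.29%, 2.99%, 17.9% and 11.5% of all windows, and it held CCAAT (34.6% of windows), shown in capitals in the 250 bases before its start. CAGCTG and CCAAT were searched as written, TATAAA letters can lie within a MEF2 site, and a match is a description and not a site.
RYR1 chr19:38433441-38433690, plus strand: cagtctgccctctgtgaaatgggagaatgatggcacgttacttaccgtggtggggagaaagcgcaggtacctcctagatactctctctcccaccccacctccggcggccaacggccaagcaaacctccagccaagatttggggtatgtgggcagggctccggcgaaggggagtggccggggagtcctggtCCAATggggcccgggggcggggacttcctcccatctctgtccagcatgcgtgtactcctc

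Genes around the members, outside the 39, were counted from wider lists. Of 40 other sarcomere genes, 36 were tested. At day 23 against day 16, 6 were called lower, ACTN3, NEB and LDB3 (an adaptor of the Z-disc) among them, and 0 higher, against 5.33% and 5.6% of all tested genes. ACTN3 had daily means of 13.1, 2.85, 0.991, 2.50 and 4.54 CPM, lowest at day 31 like RYR1. From day 23 to day 31 the mean of NEB went from 15.8 to 24.7 CPM and that of LDB3 from 3.17 to 8.34 CPM. Over that week the 36 genes had a median log2 fold change of 0.17 and 0 calls (2.25% of all tested genes), given as a description. At day 38 against day 31, 2 were called higher and 1 lower, and over the course 5 higher and 2 lower. Of all tested genes, 8.8% were higher and 6.23% lower at day 38, and 12.9% higher and 11.7% lower over the course. NEB, nebulin, rose over the course (log2 fold change 0.81 ± 0.25 SE, edgeR adjusted p = 0.0134), and MYOM1, myomesin, rose at day 38 (log2 fold change 1.19 ± 0.35 SE, edgeR adjusted p = 0.0149). ANKRD1, a stress-responsive ankyrin protein of the sarcomere, fell at day 23 against day 16 (log2 fold change -1.13, edgeR adjusted p = 0.00896). It did not pass over the course (log2 fold change -0.70 ± 0.29 SE, edgeR adjusted p = 0.0805). Of 36 other genes of excitation-contraction coupling, 34 were tested. At day 23, 1 was higher (FKBP1A) and 0 lower. There were 7 higher at day 38, with 9 higher and 4 lower over the course, where the shares of all tested genes are those just given. Between days 23 and 31, 1 was lower (SLC8A1) and 0 higher, given as a description, against 0.666% and 1.58% of all tested genes. At day 45 against day 38, 1 was higher and 4 lower (ASPH and FKBP1A among the lower), against 4.85% and 6.35% of all tested genes. ASPH (junctin and junctate) and CAMK2D (a calcium-dependent kinase) rose at day 38 (log2 fold change 0.81 ± 0.14 SE, edgeR adjusted p = 5.37e-05 for ASPH, log2 fold change 0.63 ± 0.15 SE, edgeR adjusted p = 0.00188 for CAMK2D). FKBP1A, a ryanodine receptor binding protein, rose at day 45 against day 16 (log2 fold change 1.02 ± 0.17 SE, edgeR adjusted p = 1.07e-05).

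Of 14 genes of the calcium release route used by non-muscle cells, 5 were called higher and 2 lower at day 38 against day 31 (8.8% and 6.23% of all tested genes), and 6 were higher over the course (12.9%). At day 23 against day 16, 1 was higher (CANX) and 1 lower (ITPR1), against 5.6% and 5.33% of all tested genes. ITPR1, the inositol trisphosphate receptor of the endoplasmic reticulum, was at 344 and 287 CPM on day 16, 179 and 168 on day 23, 172 and 172 on day 31, 475 and 503 on day 38, and 308 and 341 on day 45. Its day 38 pair was the highest, and its day 16 and day 45 libraries lay together. It rose at day 38 (log2 fold change 1.51 ± 0.13 SE, edgeR adjusted p = 4.34e-11) and fell at day 45 (log2 fold change -0.59 ± 0.13 SE, edgeR adjusted p = 0.00117). The reticulum chaperones CANX (log2 fold change 0.62 ± 0.11 SE, edgeR adjusted p = 0.000109) and CALR (log2 fold change 0.85 ± 0.12 SE, edgeR adjusted p = 1.72e-06) and the plasma membrane pump ATP2B4 (log2 fold change 0.52 ± 0.12 SE, edgeR adjusted p = 0.00244) rose at day 38.

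Of 25 other smooth muscle genes, 3 were called higher and 2 lower at day 23 against day 16 (5.6% and 5.33% of all tested genes). Between days 23 and 31, 0 were called in either direction (2.25% of all tested genes), given as a description. There were 8 called higher at day 38 (8.8% of all tested genes) and 11 over the course (12.9%). RHOA (log2 fold change 0.61 ± 0.13 SE, edgeR adjusted p = 0.000351), TPM4 (log2 fold change 0.74 ± 0.12 SE, edgeR adjusted p = 1.22e-05), VCL, vinculin (log2 fold change 1.45 ± 0.13 SE, edgeR adjusted p = 8.65e-11), and CNN3 (log2 fold change 0.57 ± 0.15 SE, edgeR adjusted p = 0.00458), which are used by non-muscle cells as well, were among the latter. Of 11 non-muscle actomyosin genes, 5 were called higher at day 38, against 8.8% of all tested genes. Over the course 8 were higher (12.9% of all tested genes), among them ACTG1 (log2 fold change 0.87 ± 0.12 SE, edgeR adjusted p = 2.46e-07), ACTB (log2 fold change 0.84 ± 0.11 SE, edgeR adjusted p = 7.49e-08), MYH9 (log2 fold change 0.58 ± 0.12 SE, edgeR adjusted p = 0.000211) and MYL6 (log2 fold change 0.41 ± 0.14 SE, edgeR adjusted p = 0.0264). Of 9 stress response genes, 3 were higher and 3 lower at day 45 against day 38 (4.85% and 6.35% of all tested genes), where EGR1 (log2 fold change -0.98 ± 0.14 SE, edgeR adjusted p = 3.03e-06), FOS (log2 fold change -2.02 ± 0.11 SE, edgeR adjusted p = 5.72e-15) and JUN (log2 fold change -0.47 ± 0.11 SE, edgeR adjusted p = 0.00242) fell and FOSB rose (log2 fold change 0.81 ± 0.14 SE, edgeR adjusted p = 4.78e-05).

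Levels of marker lists were set beside these changes. Summed over 10 cardiomyocyte markers, of which RYR2 had the highest CPM, the level was 123 and 129 CPM on day 16, 72.2 and 44.9 on day 23, 64.4 and 79.7 on day 31, 445 and 428 on day 38, and 424 and 447 on day 45. Of these markers 8 are also members, and the other 2 (NKX2-5 and NPPA) summed to 3.55 and 1.23 CPM on day 16, 0.554 and 0 on day 23, 0.409 and 1.86 on day 31, 0.756 and 1.98 on day 38, and 6.68 and 6.88 on day 45, the highest of the 10 libraries. NKX2-5 had 0 and 0 reads at day 31 and 22 and 11 at day 45. Summed over 10 smooth muscle markers, led by SYNPO2, it was 77.2 and 56.5 CPM on day 16, 81.2 and 64.8 on day 23, 83.8 and 70.7 on day 31, 234 and 278 on day 38, and 343 and 292 on day 45. Days 38 and 45 stood apart from the earlier days in both lists. Of the smooth muscle markers 6 are also members, and the other 4 (LMOD1, MYOCD, PLN and SYNPO2) summed to 30.5 to 56.2 CPM per library on days 16 to 31 and to 103 to 171 CPM on days 38 and 45. The 10 skeletal muscle markers, led by DES, summed to 13.7 and 7.63 CPM on day 16, 13.7 and 14.9 on day 23, 12.6 and 26.3 on day 31, 76.8 and 88.7 on day 38, and 91.3 and 107 on day 45, with MYOD1 at 0. Of these 8 are also members, and the other 2 (CKM and MYLPF) summed to at most 8.27 CPM in any library. DES, which is also in the smooth muscle list, made up 52.04 and 55.3 CPM of the day 38 sums. It made up 50.8 and 41.6 CPM of those of day 45. At day 38 against day 31, 2 of 7 tested skeletal markers (DES and TNNT3) were called higher and 0 lower, against 8.8% and 6.23% of all tested genes. The 10 fibroblast markers, led by COL3A1 (fibrillar collagen), summed to 953 and 1183 CPM on day 16, 1816 and 1804 on day 23, 1865 and 2202 on day 31, 4499.6 and 4689.8 on day 38, and 4718 and 3823 on day 45. COL3A1 itself was at 309 and 509 CPM on day 16, 957 and 953 on day 23, 826 and 1028 on day 31, 1903 and 2061 on day 38, and 2144 and 1677 on day 45. At day 38 against day 31, 4 fibroblast markers were called higher and 2 lower, and at day 45 against day 16, 8 were higher and 1 lower, with 8.8%, 6.23%, 12.9% and 11.7% of all tested genes in the same order. The fibroblast sum was thus higher in the same 4 libraries as the cardiac and smooth muscle members. The 8 thyroid markers, led by TG, went from 1612 and 1559 CPM at day 31 to 7350.2 and 6592 CPM at day 38 and the 5 epithelial markers, led by CDH1, from 1872 and 1964 to 1654 and 1427. Pericyte markers, led by NOTCH3, went from 345 and 335 to 518 and 515 CPM, and endothelial markers, led by KDR, from 54.5 and 51.4 to 19.98 and 24.3 CPM. At day 45 the thyroid sums were 9308.5 and 8825.1 CPM and the epithelial sums 1818 and 1914 CPM. The 8 thyroid markers did not move as 1. At day 38 against day 31, 4 were called higher and 0 lower (8.8% and 6.23% of all tested genes). At day 45 against day 38, TG was called higher and FOXE1, HHEX and NKX2-1 lower (4.85% and 6.35%). Over the course 5 were higher and 3 lower (FOXE1, NKX2-1 and PAX8), against 12.9% and 11.7%. The pericyte sums were then 408 and 353 CPM and the endothelial sums 49.6 and 17.1 CPM. The part of other cells in the sorted gate in these results was not tested.

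**Figure D4:**
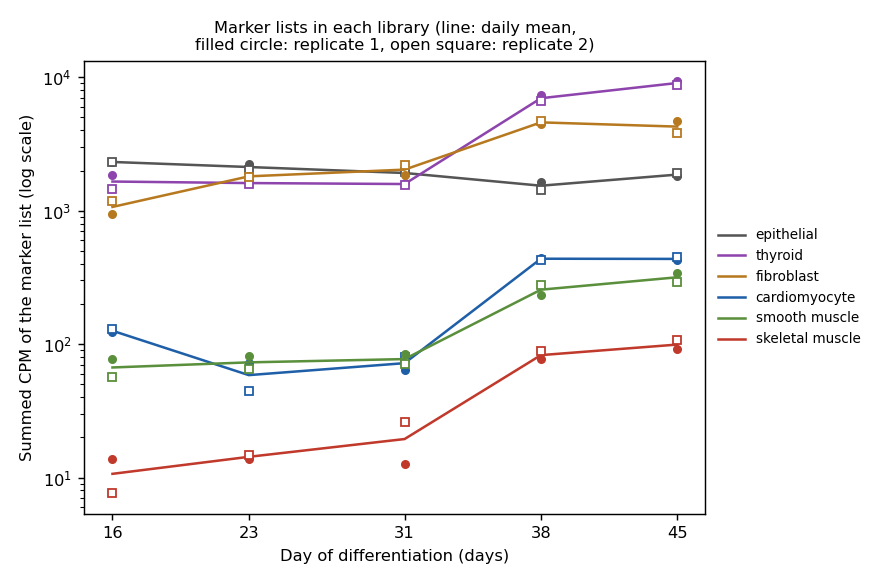
Summed CPM (log axis) of marker lists in each library against the day of differentiation, with points for libraries and lines for daily means. Cardiomyocyte, smooth muscle, skeletal muscle, fibroblast and thyroid lists are higher at days 38 and 45 than before, and the epithelial list stays between 1427 and 2321 CPM. DES is in both the smooth and the skeletal muscle list and leads the latter.

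Genes with courses like that of RYR1 were sought among 13114 genes of at least 5 CPM, by the root mean square difference of log2 CPM centred on each gene's mean over the 10 libraries. The 10 nearest were GATA2-AS1 (0.60), RASL11B (0.61), MSX1 (0.63), RGS9 (0.67), ERVMER34-1 (0.68), CORIN (0.71), SNORD116-18 (0.74), ALPK2 (0.75), GATA2 (0.75) and TPM1-AS (0.76). None of the 39 members was among them, but members averaging under 5 CPM, such as MYOG, were not in this search. The nearest member in it was TPM1, at rank 529 of 13114. The 10 genes were not classed by use in muscle. GATA2-AS1 and TPM1-AS are named as antisense to GATA2, a zinc finger factor, and TPM1, and reads from such pairs cannot be told apart where strand was not used. GATA2-AS1 had daily means of 14.7, 6.70, 0.407, 2.82 and 2.33 CPM, and RASL11B, a small GTPase, of 60.7, 32.3, 9.49, 9.31 and 9.50 CPM. MSX1, a homeobox factor, had 12.6, 8.49, 1.12, 1.25 and 2.11 CPM. A gene at the same level in every library would lie 1.396 from RYR1 by this measure. The nearest member was TPM1, at 1.17 and rank 979 of 21013 tested genes. MYOG, close to the floor, and RYR3 lay at 1.295 and 1.345. The other tested members lay farther from RYR1 than such a level gene. This ranking is a description over the libraries that also singled RYR1 out.

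**Figure D5:**
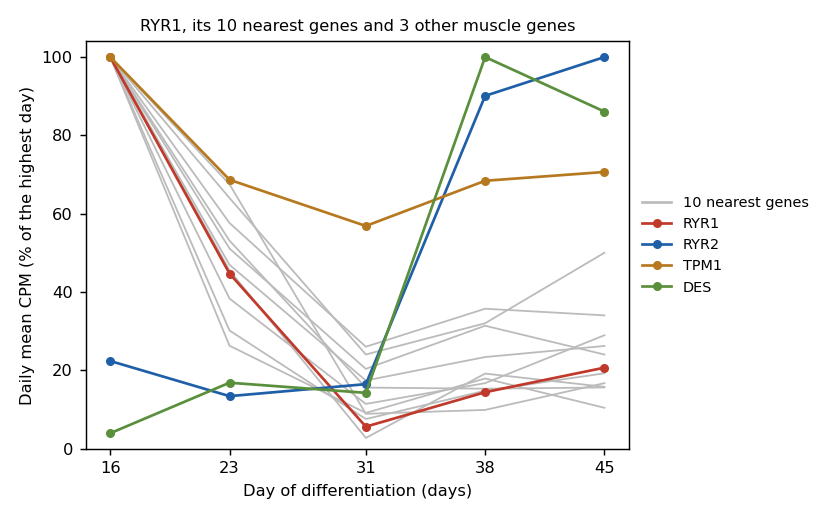
Daily mean CPM as a percentage of each gene's highest day (y axis) against the day of differentiation (x axis), for RYR1, its 10 nearest genes (grey), RYR2, TPM1 and DES. RYR1 and the grey lines are highest at day 16, whereas RYR2 is highest at day 45 and DES at day 38.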

How the data were processed

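Gene counts were deposited as 1 table per library, whole-number read counts that the authors made with Trimmomatic, HISAT2 and HTSeq on GRCh38.p13 (tool names from the submitters' processing notes; tool versions and the strand setting were not given in the sources used here) from low-input total RNA libraries. Whether molecular identifiers were used was not given in the sources used here. Each table also held 28265 blank lines, which were dropped. Counts are not normalized as deposited. Here edgeR 4.0.16 (R 4.3.3) fitted a quasi-likelihood model to all 10 libraries with 1 mean per day and TMM factors of 0.896 to 1.07, over 21014 genes (2 or more libraries with 5 or more counts). P-values were adjusted by Benjamini-Hochberg over these genes, with a threshold of 0.05. DESeq2 1.42.0 was an alternative. Log2 CPM used a prior count of 2, and exon lengths and overlaps came from GENCODE release 44, in which 91.1% of the counted genes were found by symbol. With 2 libraries per day and 5 residual degrees of freedom, p-values measure the spread between these pairs. The replicates of a day differed by 8.39 to 13.7 times the chi-square expected from sampling. Depth bounds a gene without reads at 3 counts per library.

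The 39 members and all lists were chosen with earlier results of these data known. Values in every library are given for RYR1, MYOD1, MYOG, members of at least 10 CPM on average and members called in a comparison other than day 31 against day 23, and other members by range. From each wider list up to 4 genes were named, those with the highest mean CPM among those called in a comparison, of which 2 are not reported here. NKX2-1, TG, NKX2-5, COL3A1, LDB3, ACTN3, SLC8A1, MEF2C, markers named by their call and members given by extreme values were named after their values were seen. Marker lists of neural, airway basal and goblet cells were summed as well.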

Additional observations from a re-analysis of the deposited data

How the results depend on the processing

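Of 45 gene results with a call, 24 kept it under every alternative counted for them, 21 lost it under at least 1 and 0 reversed. The demand for a log2 fold change of at least 1 was left out of this tally. Results such as TTN (-0.65 at day 38 against 31, -0.82 over the course) and TPM1 (-0.50 over the course) therefore count as kept, although they are smaller than 1. The alternatives were DESeq2, other scalings and filters, the 4 compared libraries alone, a replicate block and each library left out in turn (with 1 library left for a day, its spread was assumed to be that of the other days). RYR1 at day 45 against day 16 kept its call in 18 of 18, from -2.51 to -2.06 on the log2 scale without single libraries. The counts of members called without single libraries ranged, higher then lower, from 2 to 3 and 1 to 7 at day 23 against 16, from 0 to 2 and 1 to 2 at day 31 against 23, from 10 to 14 and 1 to 2 at day 38 against 31, from 1 to 3 and 0 to 1 at day 45 against 38, and from 10 to 15 and 3 to 3 at day 45 against 16. Without a low-count filter, 5 members were higher at day 23 against 16, and 2 were higher and 2 lower at day 31 against 23. With filterByExpr, 0 were higher at day 31 against 23 (TTN lost), 1 was lower at day 38 against 31 (CASQ1 lost) and 1 was lower at day 45 against 38 (TNNI1 gained). With at least 5 CPM in 1 library, 1 was lower at day 38 against 31. With only the 4 libraries compared, 5 were higher and 2 lower at day 45 against 38. DESeq2 called 1 lower there. Asking for a log2 fold change of at least 1 left 4 lower at day 23 against 16, 0 higher at day 31 against 23, 1 lower at day 38 against 31 and 1 lower at day 45 against 16. The cause was not tested except where the rule itself removes genes, as the fold threshold does.

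The replicate numbers share only a number: over 10 pairs of days, the correlation of same-numbered libraries' deviations ran from -0.08 to 0.08, with 0 of 10 above 0.1. With the replicate number as a block, 2 members were higher (MYH6 gained) and 2 lower (ACTC1 gained) at day 31 against 23, 15 were higher at day 38 against 31, 16 were higher at day 45 against 16 and 8 were lower at day 23 against 16. The block left 3 higher at day 23 against 16, 3 higher and 0 lower at day 45 against 38, 2 lower at day 38 against 31 and 3 lower at day 45 against 16.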

Other observations

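Lists for cell types that are neither muscle nor mesenchyme moved as follows in the same libraries. The 7 neural markers, led by MAP2, summed to 101 and 112 CPM on day 16, 148 and 155 on day 23, 190.2 and 199.7 on day 31, 146 and 166 on day 38, and 93.3 and 79.3 on day 45. Their summed level was highest at day 31, the day on which RYR1 was lowest. The neural markers went both ways at day 45 against day 16. By edgeR, 3 were called higher (ELAVL3, STMN2 and TUBB3) and 3 lower (ELAVL4, MAP2 and SYT1), against 12.9% and 11.7% of all tested genes. The 5 airway basal markers, led by KRT5, summed to 25.6 and 17.7 CPM on day 16, 14.4 and 7.77 on day 23, 18.3 and 29.9 on day 31, 32.5 and 28.6 on day 38, and 57.9 and 45.3 on day 45, and the 4 goblet cell markers, led by MUC5B, to 1.27 and 5.29 CPM on day 16, 1.99 and 3.31 on day 23, 4.60 and 6.05 on day 31, 49.99 and 36.6 on day 38, and 105 and 56.6 on day 45. At day 45 against day 16, 2 airway basal markers (KRT5 and KRT14) and 3 goblet markers (MUC5AC, MUC5B and TFF3) were called higher by edgeR, against 12.9% of all tested genes.

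The day 45 replicates differed in opposite directions for scarce members. MYH3 had 21 and 227 reads and MYH8 0 and 23 in replicates 1 and 2, while CASQ1 had 38 and 4 and TNNI3 56 and 11.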
